A study of Elaeis guineensis with 9 samples.

Results

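The 34 mRNAs described here were low in leaves of the oil palm cross Deli x LaMe and at least 2 times higher in leaves of both other crosses studied. They were chosen by their own values: a predicted mRNA model was taken when its lowest value in the 6 libraries of the other crosses was at least 5 TPM and at least 2 times its highest value in the 3 LaMe libraries, with a mean under 1000 TPM over the 9 libraries. TPM is the length-corrected share of a transcript in a library, scaled so that the values of a library add up to 1000000. The rule took 34 of 43344 predicted mRNA models with a mean under that limit, in a table of 51490 transcript models. Because that contrast selected the mRNAs, their difference between LaMe and the other crosses is given as a description, without a test.

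The study sequenced RNA from leaves of Elaeis guineensis, the African oil palm, in 9 libraries, to compare palms that differ in oil yield and in genetic population. The palms, all of the Tenera cultivar and aged 7 years, grew in a single field where yield had been recorded for 4 years, and their leaves were taken at frond 17. The populations were Deli x LaMe, Deli x Yangambi and Deli x SP540, called LaMe, Yangambi and SP540 below after the parent that differs, and all 3 share the Deli parent. Each population held 1 library from palms classed as low, 1 from medium and 1 from high oil yield, so each population and each yield class had 3 libraries. The number of palms behind each library and any preparation batches are absent from the labels, so p-values measure only the spread between these libraries. Between 26390 and 28320 transcript models reached 1 TPM in a library, most of them in medium-yield SP540. The labels name leaves as the tissue, and this was not checked against marker genes, because no product names were at hand.

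Oil palm populations go back to small numbers of founder palms, and breeders cross Deli palms of the thick-shelled dura form with pisifera palms of African descent to obtain the thin-shelled tenera hybrids grown for oil. La Mé in Côte d'Ivoire and Yangambi in the Congo basin are breeding stations that gave their names to such African populations. Populations of this kind differ in the alleles they carry, in the sequence of their transcripts and in which genes are present. A gene can also give several transcripts that share exons and differ in where they start, end or are spliced. A method that compares reads with a fixed set of transcript models, as kallisto does, divides reads shared by such models between them by estimation, so a value belongs to a model, and the models of a single gene do not give independent measurements.

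Of the 34 mRNAs, 18 were paired with a gene by accession, each with a different gene, and 16 were unpaired. All 18 genes carry only a LOC symbol in the table used, so the mRNAs are described by level and position in the gene order rather than by role. No pair of the 34 had identical values in all libraries.

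Together the 34 mRNAs held 207, 207 and 202 TPM in the low-, medium- and high-yield LaMe libraries. In Yangambi they held 2153, 2417 and 2205 TPM in the same order, and in SP540 2097, 2039 and 2088 TPM. The sum was thus about equal within each population and in LaMe was a small part of that in the others. The rule fixes that the LaMe sum is lower, but not by how much, nor that libraries of a population are alike. A single mRNA, XM_010924833.3, had a mean of 541 TPM over the other 6 libraries. As a share of all TPM, the sum was 0.0202 to 0.0207% in LaMe and 0.204 to 0.242% in the other 6 libraries. In bulk leaf tissue, fewer cells of a type and less RNA per cell cannot be told apart.

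**Figure D1:**
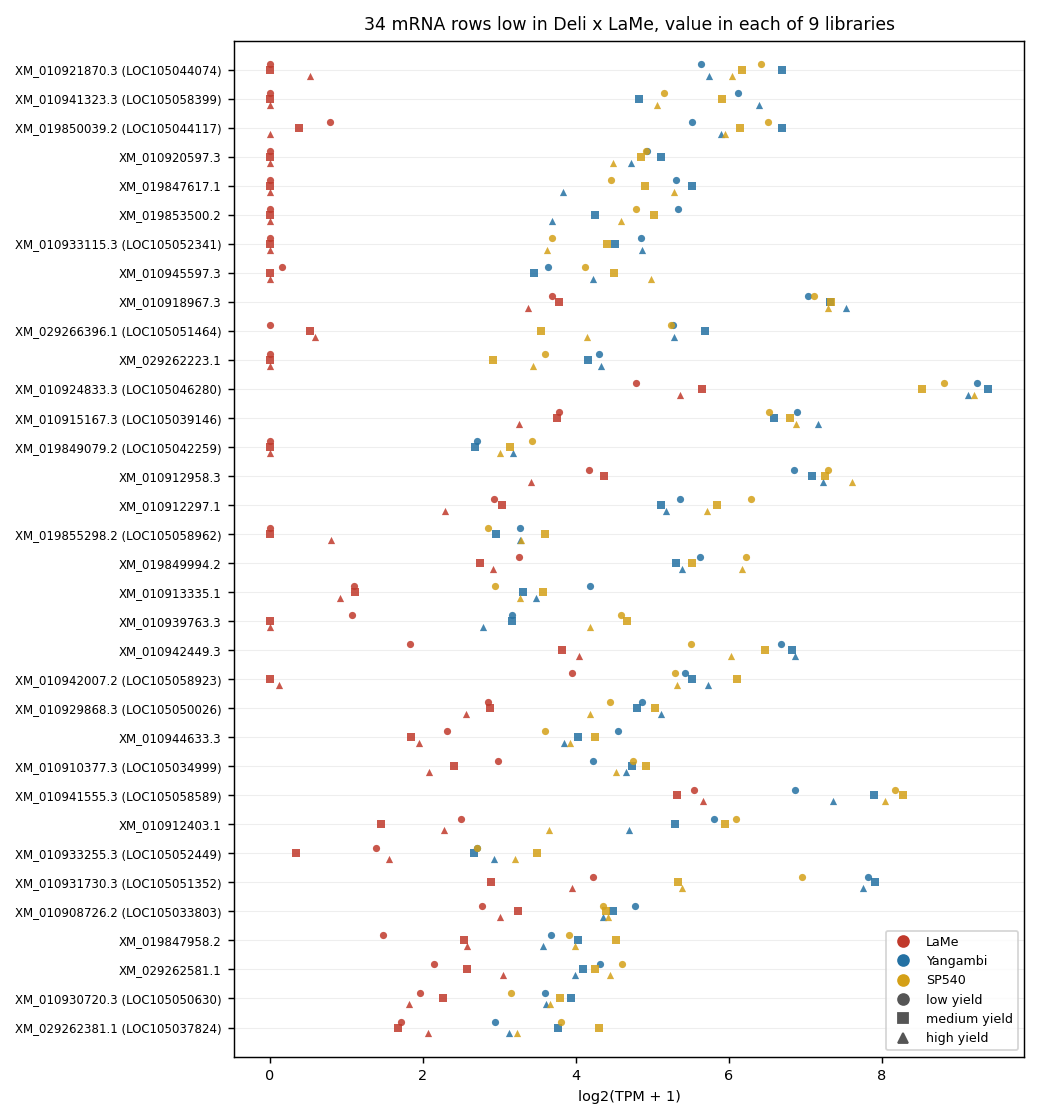
Level of each of the 34 mRNAs in each library as log2(TPM + 1), ordered by the gap between the highest LaMe library and the lowest other library; colour gives the population and shape the yield class. For 7 mRNAs all 3 LaMe libraries lie at 0, and the rule chose the mRNAs for the gap between the red points and the rest.

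The mRNAs fell into 3 levels in LaMe: 7 were listed at 0 in all 3 LaMe libraries, 5 were under 1 TPM in every LaMe library and above 0 in at least 1, and 22 reached 1 TPM or more in at least 1 LaMe library. A TPM table keeps no sequencing depth, so the reads behind a value and the limit that a value of 0 allows are unknown, and no size of difference is given where a whole side of a comparison is listed at 0, since it would rest on the pseudocount, the 1 TPM added before logarithms are taken.

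The 7 mRNAs listed at 0 in LaMe had means of 7.27 to 50.9 TPM over the other 6 libraries, with a median of 25.1 TPM. XM_010941323.3 of LOC105058399, the highest of them, stood at 68.6, 27.4 and 82.9 TPM in low-, medium- and high-yield Yangambi and at 34.6, 59.3 and 32.5 TPM in low-, medium- and high-yield SP540. The values of Yangambi and SP540 overlapped, and the medium-yield library was the lowest in Yangambi but the highest in SP540. The unpaired XM_010920597.3 varied least of the 7 in relation to its mean of 27.9 TPM, with 29.5, 33.6 and 25.5 TPM in Yangambi and 29.1, 27.9 and 21.5 TPM in SP540 from low to high yield. Its values overlapped between the populations. XM_019847617.1, also unpaired, stood at 38.6, 44.7 and 13.2 TPM in Yangambi and at 20.9, 28.9 and 38.1 TPM in SP540. The high-yield library was thus the lowest of Yangambi and the highest of SP540.

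XM_019853500.2 stood at 39.4, 18.03 and 11.9 TPM in Yangambi and at 26.7, 31.4 and 23.2 TPM in SP540, overlapping. XM_010933115.3 of LOC105052341 stood at 27.9, 21.8 and 28.0 TPM in Yangambi and at 11.9, 20.3 and 11.3 TPM in SP540. XM_029262223.1 stood at 18.8, 16.9 and 19.0 TPM in Yangambi and at 11.04, 6.54 and 9.84 TPM in SP540. Of these 3, the last pair were higher in every Yangambi library than in any SP540 library. XM_019849079.2 of LOC105042259, named after its values were seen, was the lowest of the 7, at 5.53, 5.41 and 8.05 TPM in Yangambi and 9.74, 7.84 and 7.04 TPM in SP540.

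The 5 mRNAs that stayed under 1 TPM in LaMe but were above 0 in at least 1 LaMe library had a mean over the other 6 libraries that was 33.7 to 493 times the LaMe mean, with a median of 209 times. The LaMe means were 0.0392 to 0.340 TPM, so these ratios rest on values near 0, and nothing is read from their size. XM_010921870.3 of LOC105044074 was listed at 0 in low- and medium-yield LaMe and stood at 0.431 TPM in high-yield LaMe, against 48.8, 102 and 52.3 TPM in Yangambi and 85.1, 71.2 and 65.2 TPM in SP540. XM_019850039.2 of LOC105044117 stood at 0.717 and 0.303 TPM in low- and medium-yield LaMe and was listed at 0 in high-yield LaMe, against 45.0, 102 and 58.5 TPM in Yangambi and 90.5, 70.0 and 60.8 TPM in SP540. These mRNAs moved side by side: both were highest in medium-yield Yangambi, and their genes are neighbours, with 0 annotated genes between them. Over the 6 libraries of Yangambi and SP540, the TPM of LOC105044117 was 0.923 to 1.12 times that of LOC105044074. Whether these models share reads was not tested, since no sequences were at hand, so they are not taken as independent measurements.

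XM_010945597.3 stood at 0.117, 2.78e-07 and 0.00092 TPM in LaMe, at 11.4, 9.96 and 17.8 TPM in Yangambi and at 16.4, 21.6 and 30.5 TPM in SP540. XM_029266396.1 of LOC105051464 stood at 0, 0.440 and 0.504 TPM in LaMe, at 37.4, 50.7 and 38.0 TPM in Yangambi and at 36.9, 10.7 and 16.8 TPM in SP540. Its low-yield SP540 library lay next to the Yangambi values, and the other SP540 libraries lay well below. XM_019855298.2 of LOC105058962, named after its values were seen, was listed at 0 in low- and medium-yield LaMe and stood at 0.742 TPM in high-yield LaMe, against 6.20 to 11.1 TPM in the other 6 libraries.

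The remaining 22 mRNAs reached 1 TPM in at least 1 LaMe library, with LaMe means of 0.369 to 44.8 TPM. Their means over the other 6 libraries were 6.92 to 541 TPM, with a median of 34.6 TPM, and were 2.98 to 39.0 times the LaMe means, with a median of 7.99 times. The ratio of 39.0 belongs to XM_010939763.3, at 1.11, 0 and 0 TPM in LaMe, and rests on a single LaMe library. XM_010924833.3 of LOC105046280 had the highest level of all 34, at 609, 673 and 560.2 TPM in Yangambi and 450.03, 367 and 589 TPM in SP540. In LaMe it stood at 26.7, 49.2 and 39.99 TPM, so that even its highest LaMe value was several times lower than its lowest value elsewhere. XM_010918967.3, unpaired, varied least in relation to its mean among the 8 mRNAs with the highest levels, at 11.9, 12.8 and 9.35 TPM in LaMe, 131, 159 and 183 TPM in Yangambi and 137, 161 and 157 TPM in SP540. Yangambi and SP540 overlapped for this mRNA, whose mean over them was 13.6 times its LaMe mean.

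XM_010915167.3 of LOC105039146 stood at 12.7, 12.5 and 8.53 TPM in LaMe, at 118, 95.1 and 143 TPM in Yangambi and at 91.3, 110.0 and 117 TPM in SP540. XM_010912958.3, unpaired, stood at 17.1, 19.7 and 9.69 TPM in LaMe, at 115, 135 and 149.5 TPM in Yangambi and at 156, 153 and 194 TPM in SP540. XM_010941555.3 of LOC105058589 stood at 45.7, 39.0 and 49.7 TPM in LaMe, at 116, 238 and 163 TPM in Yangambi and at 289, 309 and 263 TPM in SP540. For both of the latter, the populations formed 3 levels without overlap, with LaMe lowest and SP540 highest. XM_010931730.3 of LOC105051352 stood at 17.7, 6.38 and 14.5 TPM in LaMe, at 225, 240.3 and 216 TPM in Yangambi and at 123, 39.5 and 40.9 TPM in SP540. XM_010942449.3, unpaired, stood at 2.55, 13.1 and 15.5 TPM in LaMe, at 102, 113 and 116 TPM in Yangambi and at 44.3, 87.6 and 64.6 TPM in SP540. For this pair the order was reversed, with every SP540 library between LaMe and Yangambi.

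In LaMe, XM_010942007.2 of LOC105058923, named after its values were seen, stood at 14.4 TPM in the low-yield library, was listed at 0 in the medium-yield library and stood at 0.0833 TPM in the high-yield library, so 1 LaMe library decided its place near the threshold. In the other 6 libraries it ranged from 38.1 to 67.7 TPM. The unpaired XM_010912403.1, also named after its values were seen, spread most in SP540, at 67.1, 61.0 and 11.6 TPM from low to high yield, against 54.8, 38.3 and 24.8 TPM in Yangambi and 4.65, 1.73 and 3.82 TPM in LaMe. The high-yield library was the lowest in Yangambi and in SP540, and the medium-yield library was the lowest in LaMe.

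At the edge of the rule, the lowest value elsewhere was 2.10 times the highest LaMe value for XM_029262381.1 of LOC105037824, 2.10 times for XM_010930720.3 of LOC105050630 and 2.06 times for XM_029262581.1. Just outside, it was 1.97 times for XM_019850467.2, 1.96 times for XM_010920484.3 and 1.96 times for XM_010912508.2. On the side of the 5 TPM minimum, XM_010911356.3, XM_029267611.1 and XM_029266101.1 were listed at 0 in all LaMe libraries and had lowest values elsewhere of 4.77, 4.29 and 4.08 TPM. The rule therefore cuts through a continuous range of ratios and levels, and the number 34 depends on both limits.

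The number of mRNAs was set beside that from the same thresholds with other libraries in the place of LaMe. With the 3 Yangambi libraries 14 mRNAs were low, and with the 3 SP540 libraries 4 were. With the low-, medium- or high-yield libraries the number was 0 each. Over all 83 other sets of 3 libraries the number ranged from 0 to 14 with a median of 1, and the 78 sets that match no labelled group gave at most 6, with 29 of them at 0. In the opposite direction, 32 mRNAs were high in LaMe alone by the same thresholds, 14 in Yangambi alone and 14 in SP540 alone. LaMe thus set apart more mRNAs than Yangambi or SP540 in both directions, a description of these 9 libraries without a test.

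**Figure D2:**
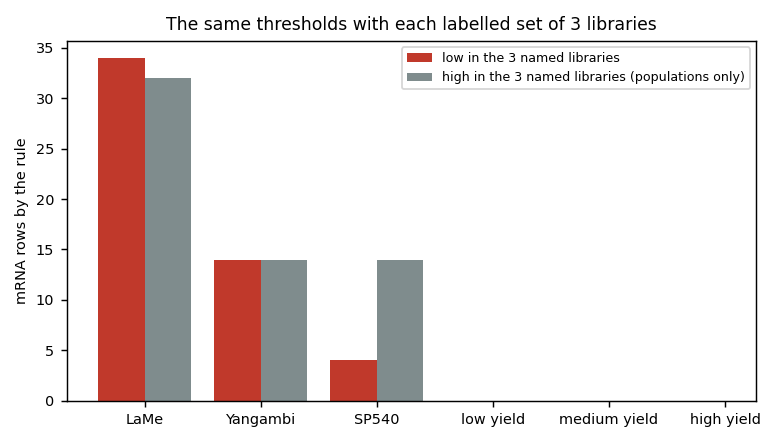
Number of predicted mRNA models that meet the thresholds when each labelled set of 3 libraries takes the place of LaMe, for low values (red) and, for populations, high values (grey). LaMe gave 34 low and 32 high, Yangambi 14 and 14, SP540 4 and 14, and each yield class gave 0 low.

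For 8 of the 18 genes the table held 13 further transcript models, and these show whether the gene as a whole was low. When the models of a gene were added up, LaMe overlapped the other 6 libraries for 5 of the 8 genes and lay below them for 3. For the other 10 genes the mRNA was the gene's only model in the table, so the gene sum is the value that chose it. By comparison, among all 25145 gene sums and unpaired models that reached 1 TPM in 3 or more libraries, all LaMe libraries lay below the other 6 for 4.94%. No reading of the 3 genes is made from that share, since each holds an mRNA chosen for being low in LaMe.

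In LOC105046280 the models of the gene traded places. The model with no place among the 34, XM_010924832.3, stood at 750.3, 740.3 and 683 TPM in LaMe, at 92.0, 102 and 112 TPM in Yangambi and at 97.5, 443 and 91.5 TPM in SP540. The sum of both models was 777, 789 and 723 TPM in LaMe and 548 to 811 TPM elsewhere, so the populations overlapped. The chosen model held 3.43 to 6.23% of the gene's TPM in LaMe, 83.4 to 86.9% in Yangambi, and 82.2, 45.3 and 86.6% in low-, medium- and high-yield SP540. Medium-yield SP540 thus lay between the populations, with about equal parts from each model.

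LOC105058589 and LOC105058962 also each had another model that was higher in every LaMe library than in any other library. In LOC105058589 the other model, XM_010941556.3, stood at 149.6, 153 and 179.7 TPM in LaMe, at 63.5, 1.79 and 80.2 TPM in Yangambi and at 2.18, 3.30 and 1.64 TPM in SP540. Medium-yield Yangambi resembled SP540 here, whereas low- and high-yield Yangambi held both models. The chosen model made up 20.3 to 23.4% of the gene in LaMe and 64.6 to 99.4% elsewhere, and the gene sums overlapped, at 192 to 229 TPM in LaMe and 179 to 312 TPM elsewhere. In LOC105058962 the other model, XM_019855299.1, stood at 9.04, 6.06 and 5.87 TPM in LaMe and was listed at 0 in all 6 other libraries. The chosen model was 0, 0 and 11.2% of that gene in LaMe and 100% in each other library. The sums of LOC105058962 were low, at 6.06 to 9.04 TPM in LaMe and 6.20 to 11.1 TPM elsewhere.

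In LOC105039146 the gene sum was 323 to 348 TPM in LaMe and 322 to 390.0 TPM elsewhere, and the chosen model held 2.46 to 3.87% of it in LaMe and 27.5 to 36.6% elsewhere. Its main model, XM_010915166.3, stood at 329.7, 305 and 335 TPM in LaMe and 183 to 236 TPM elsewhere, without overlap. Its remaining model, XR_830847.3, went the same way as the chosen one, at 5.92, 6.16 and 2.46 TPM in LaMe and 7.59 to 43.9 TPM elsewhere. In LOC105052449 the chosen model was a minor one everywhere, with 1.02 to 5.42% of the gene in LaMe and 13.8 to 22.6% elsewhere, and the sums overlapped, at 26.5 to 36.0 TPM against 35.1 to 45.2 TPM. Its main model, XM_010933256.3, overlapped, at 28.2, 25.1 and 34.1 TPM in LaMe and 19.4 to 32.7 TPM elsewhere. Its remaining model, XM_010933257.2, stood at 0, 1.13 and 0 TPM in LaMe and 2.04e-06 to 10.3 TPM elsewhere.

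In the 3 genes whose sum was lower in LaMe as well, the difference of the sum was smaller than that of the chosen model. The rule favours such an outcome, since it chose that model for its difference and the sum adds models that it did not choose. For LOC105034999 the mean sum elsewhere was 2.03 times that in LaMe, with 22.6 to 27.9 TPM against 42.2 to 63.5 TPM. For LOC105050026 it was 2.05 times, with 25.0 to 28.5 TPM against 42.8 to 72.1 TPM. For LOC105051352 it was 1.40 times, with 268 to 285 TPM against 338 to 462 TPM. In LOC105051352 the chosen model held 2.32 to 6.23% of the gene in LaMe and 50.7 to 57.4% in Yangambi, with 34.7, 11.5 and 12.1% in SP540 from low to high yield. The corresponding ratios for the chosen models were 5.002, 4.54 and 11.4. Another model of LOC105050026, XM_029266101.1, was listed at 0 in all LaMe libraries, unlike the chosen one. It stood at 8.31, 4.08 and 19.1 TPM in Yangambi and 5.31, 17.3 and 6.12 TPM in SP540, and missed the 5 TPM minimum in a single library.

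**Figure D3:**
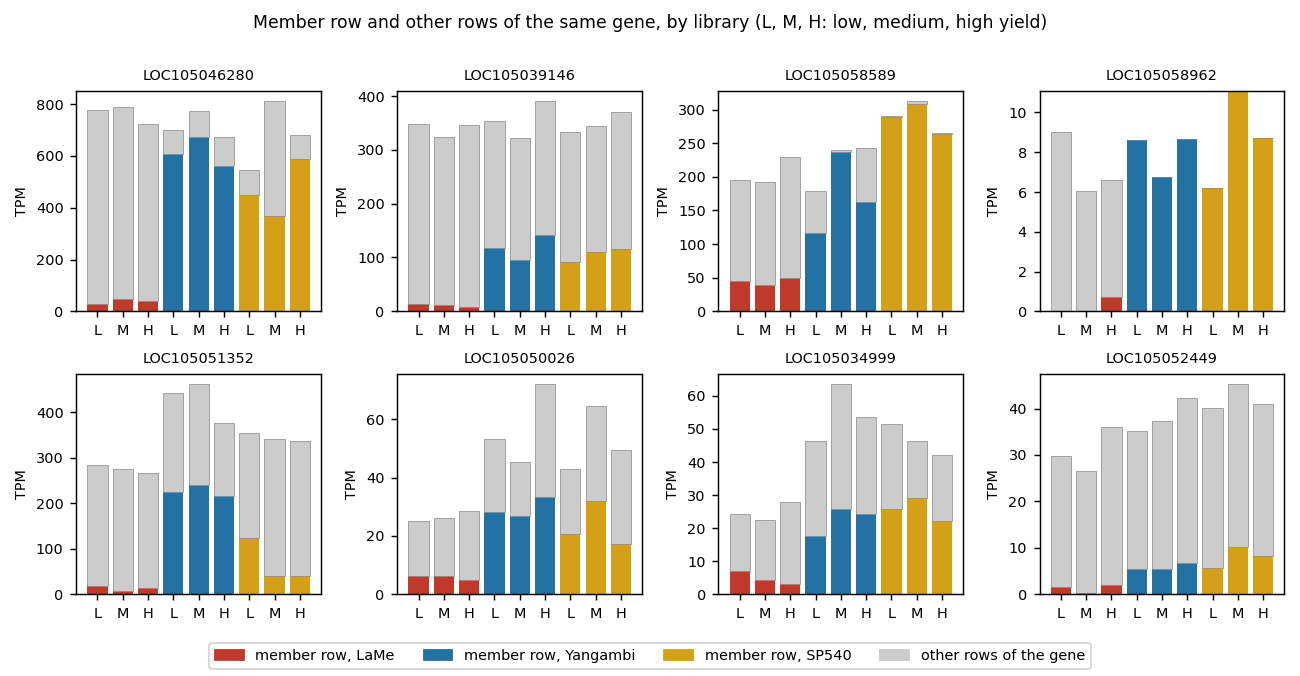
TPM of the chosen model (coloured by population) and of the other models of its gene (grey, stacked on top) in each library, for the 8 genes with further models; L, M and H are low, medium and high yield. In LOC105046280 the sum is 723 to 789 TPM in LaMe and 548 to 811 TPM elsewhere, while the coloured part is 26.7 to 49.2 TPM in LaMe and 367 to 673 TPM elsewhere.

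The 13 further models were not chosen by the rule, but the reads they share with the chosen models tie their values together. They were tested for LaMe against the mean of Yangambi and SP540 with limma on log2(TPM + 1), fitted over all 30576 transcripts that reached 1 TPM in 3 or more libraries, with additive terms for population and for yield class. A transcript is called when its Benjamini-Hochberg adjusted p is under 0.05, and in this contrast 0.477% of all transcripts tested were called. Of the 13 further models 1 was called, XM_019855299.1 of LOC105058962, above 0 in LaMe alone, with an adjusted p of 0.0135. It reached 1 TPM in LaMe libraries alone, and so entered the test only through the group where it is high. Nothing is therefore read from this call. That call was lost with a pseudocount of 0.1, at an adjusted p of 0.0573, and without high-yield Yangambi, at 0.0502. XM_010924832.3 of LOC105046280 had a difference of LaMe minus the others of 2.50 (SE 0.40) on the log2 scale with an adjusted p of 0.0691, and did not pass. With each library left out in turn, its adjusted p was 0.117 to 0.336 for 8 of the 9 libraries and 0.00295 without medium-yield SP540, where its value was unlike the other SP540 libraries. XM_029266101.1 of LOC105050026, listed at 0 in LaMe, had an adjusted p of 0.0675, which was 0.0231 with a pseudocount of 0.1 and 0.0466 without medium-yield Yangambi. For XM_010941556.3 of LOC105058589 the limma difference was 4.16 (SE 0.89) with an adjusted p of 0.135, and it did not pass.

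The genes on either side of the 18 were examined next, since they were not chosen by their values. Of 34 distinct genes next to a chosen gene that hold no chosen mRNA themselves, 30 reached 1 TPM in at least 3 libraries. All LaMe libraries lay below the other 6 for 2 of them, 6.67%, and above for 2, 6.67%, where 4.94% and 2.77% of all gene sums and unpaired models did. Over genes up to 5 positions away, the shares were 10 of 128, 7.81%, below and 6 of 128, 4.69%, above. Each share lies above that of the background, but the counts are small and the difference was not tested. The 48 transcripts of the next genes held 1 called transcript, and the 183 transcripts of genes up to 5 away also held 1, the same one, against 0.477% of all transcripts.

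The called neighbour was XM_010912176.3 of LOC105036411, next to LOC105042259. It was listed at 0 in all LaMe libraries and stood at 2.63, 2.34 and 5.60 TPM in Yangambi and at 3.89, 7.17 and 4.53 TPM in SP540. Both neighbours were thus listed at 0 in LaMe and were low elsewhere. The adjusted p was 0.0493. This transcript reached 1 TPM in Yangambi and SP540 alone. It thus entered the test only through the groups where it is high, and nothing is read from the call. The call was lost when any 1 of the 9 libraries was left out, with adjusted p-values up to 0.270.

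Of the other neighbours, LOC109504788, next to LOC105051464, stood at 0, 0.813 and 13.5 TPM in LaMe, at 46.8, 72.2 and 62.8 TPM in Yangambi and at 46.6, 0 and 0.442 TPM in SP540. It was high in the Yangambi libraries and low-yield SP540 and low in the rest, and LOC105051464 itself had its lowest values outside LaMe in medium- and high-yield SP540. The limma difference of LOC109504788 between LaMe and the others was -2.41 (SE 1.32) with an adjusted p of 0.520. LOC105044072, next to LOC105044117, went the opposite way, at 10.3, 11.6 and 24.3 TPM in LaMe and 0.218 to 9.64 TPM elsewhere, with a difference of 2.30 (SE 0.87) and an adjusted p of 0.356. LOC105052342, next to LOC105052341, was also higher in LaMe, with gene sums of 116, 110.5 and 104 TPM against 34.5 to 96.1 TPM. These 3 genes were named after their values were seen. Apart from LOC105044074 and LOC105044117, the closest chosen genes were LOC105058923 and LOC105058962, with 26 genes between them.

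**Figure D4:**
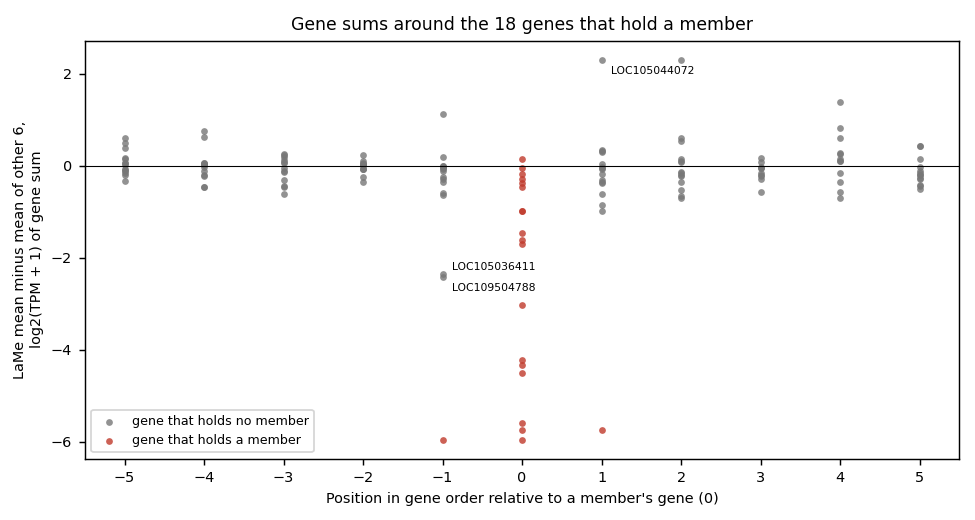
Difference of mean log2(TPM + 1) between the 3 LaMe and the other 6 libraries for the gene sums of the 18 genes that hold a chosen mRNA (red, position 0) and of genes up to 5 positions to either side (grey). LOC105044074 and LOC105044117, each beside the other, are also drawn in red as neighbours. A gene next to several of the 18 is drawn for each. Most neighbours lie near 0, with LOC109504788 at -2.41, LOC105044072 at 2.30 and LOC105036411 beside LOC109504788. The place of LOC105036411 rests on the pseudocount because it was listed at 0 in LaMe. The same holds for LOC105042259, LOC105052341 and LOC105058399 at position 0.

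SP540 and Yangambi were then compared. The rule did not use the difference between them, but it set a minimum for every library of both. All 34 mRNAs passed the filter on low values, as the rule's minimum ensures. None of the 34 was called, and 0.00327% of all transcripts, 1 of 30576, were. At an unadjusted p under 0.05 there were 9 of 34 mRNAs, 26.5%, against 9.54% of all transcripts. The rule asked for at least 5 TPM in every Yangambi and SP540 library. The filter for all transcripts asked for 1 TPM in only 3 libraries. The sets are thus unlike in level, and transcripts of matched level were not tested, so nothing is read from the gap between these shares. The median log2 difference of SP540 minus Yangambi was 0.01 over the 34 mRNAs, with a range of -1.94 to 1.44, against a median of 0.07 over all transcripts. The median SE of these differences was 0.28.

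Every SP540 library lay above every Yangambi library for 4 of the 34 mRNAs, 11.8%, and below for 5, 14.7%. Over all transcripts, a set unlike the 34 in level, these shares were 9.45% and 5.41%, and nothing is read from the gap. The 4 were XM_010912958.3, XM_010912297.1, XM_010939763.3 and XM_010941555.3, and the 5 were XM_010933115.3, XM_029266396.1, XM_029262223.1, XM_010942449.3 and XM_010931730.3. XM_010931730.3 had the largest difference, -1.94 (SE 0.37) with a 95% interval of -2.80 to -1.07 and an adjusted p of 0.206. XM_010939763.3 stood at 1.11, 0 and 0 TPM in LaMe, at 7.97, 7.93 and 5.92 TPM in Yangambi and at 23.0, 24.5 and 17.1 TPM in SP540, and was higher in SP540 by 1.44 (SE 0.30), with a 95% interval of 0.74 to 2.15 and an adjusted p of 0.245. XM_010912297.1 stood at 6.60, 7.16 and 3.91 TPM in LaMe, at 39.998, 33.7 and 35.3 TPM in Yangambi and at 77.2, 56.4 and 51.4 TPM in SP540, a difference of 0.73 (SE 0.18), with a 95% interval of 0.29 to 1.17 and an adjusted p of 0.343. Both of these mRNAs were named after their values were seen. For both, the populations formed 3 separate levels, and neither passed the threshold.

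**Figure D5:**
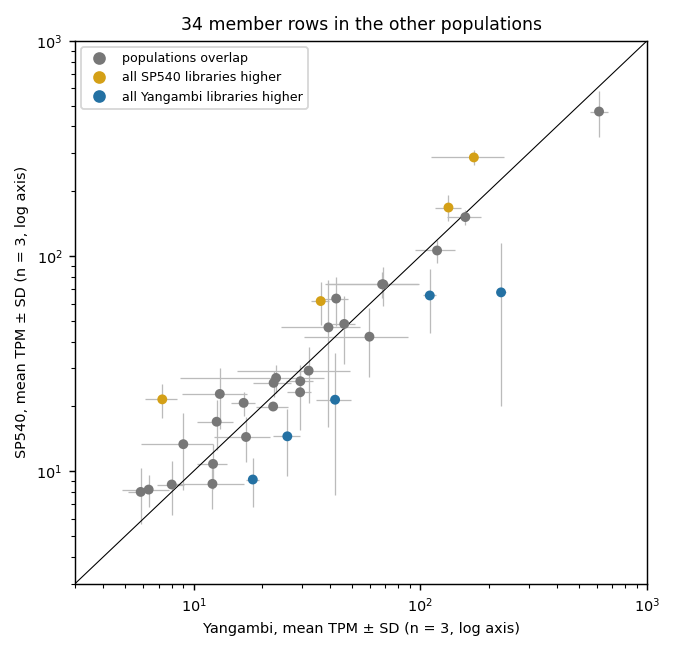
Mean TPM of each of the 34 mRNAs in SP540 against Yangambi, both on log axes, with SD bars over 3 libraries and a line of equal level. Coloured points are the 4 mRNAs with every SP540 library higher and the 5 with every Yangambi library higher, and the rest overlap.

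Oil yield was the other contrast whose difference the rule did not use, and shares of all transcripts carry the same limit here. For high against low yield, limma called 0 of the 34 mRNAs and 0% of all transcripts, and the lowest adjusted p among the 34 was 0.987. At an unadjusted p under 0.05 there were 3 of the 34, 8.82%, and 4.66% of all transcripts. For any difference among the yield classes, 0 of the 34 and 0% of all transcripts were called, with 1 of the 34, 2.94%, and 4.21% of all transcripts at an unadjusted p under 0.05. The high-yield library lay above the low-yield library in all 3 populations for 3 of the 34 mRNAs, 8.82%, and below it for 5, 14.7%, where the shares over all transcripts were 13.9% and 9.89%. The 7 mRNAs listed at 0 in all LaMe libraries could count in neither direction, so nothing is read from these shares. For the same 7, LaMe adds a difference of 0 to the fitted yield difference. The median log2 difference of high minus low yield was -0.03 over the 34 mRNAs, with a range of -1.26 to 0.98, against a median of 0.03 over all transcripts.

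The extremes of that range were XM_010912403.1, at -1.26 (SE 0.51) with a 95% interval of -2.48 to -0.05, and XM_010942449.3, at 0.98 (SE 0.38) with a 95% interval of 0.07 to 1.89, both with an adjusted p of 0.987. XM_010942449.3 was lowest in the low-yield library in each population. With each library left out in turn, its difference was 0.43 to 1.40. It was 0.43 without low-yield LaMe, 0.60 without high-yield LaMe and 1.40 without low-yield Yangambi. Neither mRNA passed the threshold. Both 95% intervals reach in size from close to 0 to well over 1. These libraries therefore do not show that the mRNAs were equal between yield classes.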

How the data were processed

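Leaf RNA was sequenced from 9 oil palm libraries after TruSeq mRNA library preparation, per the labels' protocols. The deposited table, named as counts, gives TPM per transcript. Every column sums to 1000000, so the authors' values are TPM and a count test was not used. The submitters' processing notes name fastp, kallisto and DESeq2 without versions, and which transcript set and genome build were used is not given in the sources used here. Depth is therefore unknown.

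The 34 mRNAs, their named members and the tests were chosen with earlier results of these data known. Members named in full were the 12 with the largest gap, the 8 with the highest level and the 3 nearest the threshold on either side, and others are marked. Models were paired with genes of the RefSeq assembly EG11 by accession without version (31716 of 51490 paired, 52.9% of the 34 and 65.9% of all predicted mRNA models), for names and gene order only. Tests used limma 3.58.1 in R 4.3.3 (statmod 1.5.0) on log2(TPM + 1), which understates changes at low TPM, with population and yield class, 4 residual degrees of freedom and a trended, robust prior, and were checked on simulated data. P-values were two-sided. Other pseudocounts, filters, scalings and covariates, gene sums and left-out libraries were tried. With 1 library per combination no interaction could be fitted. Product-name lists, marker checks and protein comparisons were not run, because no product names or sequences were at hand.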

Additional observations from a re-analysis of the deposited data

How the results depend on the processing

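The number of chosen mRNAs was 78 with a ratio of 1.5, 20 with a ratio of 3, 75 with a minimum of 1 TPM and 41 to 57 with a library left out, which loosens the rule; without medium-yield LaMe it was 57 and without high-yield LaMe 54. It was 25 with a minimum of 10 TPM, 28 with TPM summed per gene and 33 after rescaling by median ratios. Of the 28 gene sums, 26 hold 1 of the 34 mRNAs and 2 hold none. The 26 are mRNAs without further models, whose sum is the value that chose them. None of the 8 genes with further models met the ratio of 2 as a sum. No mRNA of the 34 was called between SP540 and Yangambi or between yield classes by limma under any of the 15 alternatives. The count of called further and neighbouring transcripts, 2 in the reported fit, was 1 with a pseudocount of 5, with no filter, with gene sums and with centred values, 6 without a covariate and 0 to 3 with a library left out. It was 0 when any 1 of the 3 LaMe libraries or high-yield Yangambi was left out, 3 without medium-yield Yangambi, and 1 without low-yield Yangambi, low-yield SP540 or high-yield SP540. XM_019855299.1 could not be tested without a LaMe library, as only 2 libraries above 0 remain. At a pseudocount of 0.1 the count was again 2, with XM_029266101.1 called in the place of XM_019855299.1. The call of XM_010912176.3 was lost in 12 of 14 alternatives. No difference retested under these alternatives changed sign. Yield class, the only label that links libraries across populations, is a term of the reported fit, and the fit without a covariate leaves it out.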

Other observations

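The same thresholds applied to predicted non-coding RNA models took 12 of 8025, 0.150%, against 0.0784% of predicted mRNA models. Among models at 5 TPM or more in all 6 libraries of Yangambi and SP540, the shares were 12 of 592, 2.03%, for non-coding and 34 of 12280, 0.277%, for mRNA models. These shares are descriptions without a test. XR_003799469.1 of LOC105036243 stood at 1.90, 2.09 and 3.76 TPM in low-, medium- and high-yield LaMe, at 65.8, 66.4 and 62.7 TPM in Yangambi and at 176, 80.2 and 133 TPM in SP540. XR_003800592.1, unpaired, stood at 0.325, 1.39 and 0.619 TPM in LaMe and at 36.0 to 54.4 TPM in the other 6 libraries. Both were chosen after their values were seen. Of the 89 predicted mRNA models with a mean of 1000 TPM or more, 0 met the thresholds.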
